A study of Mus musculus with 8 samples.

Results

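The genes described here encode the proteins of the cytosolic ribosome, the machine that translates nuclear messages. They were taken by name, as every row of the deposited expression table whose annotation reads Rpl, Rps or Rplp followed by a number and at most a paralog letter. The rule found 84 of the 24535 rows, of which 49 belong to the large subunit, 32 to the small subunit and 3 to the acidic stalk. Poly(A) RNA was taken from brown fat, the adipose tissue that produces heat, in mice of strain 129Sv/C57BL6j aged 18 weeks, held at 30 °C and fed chow freely. The knockout mice (PATKO, libraries 53, 57, 70 and 71) had lost, in adipose tissue, Pgrmc2, the heme-binding membrane protein that the series title calls a heme chaperone. They were set against wild type mice (WT, libraries 55, 62, 64 and 65) of the same strain, age, diet and temperature. The Cre driver of the knockout is not given in the sources used here, and nothing in the labels ties a library number to a separate animal, so the p-values measure the spread between these libraries.

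Each ribosome holds a single copy of nearly every one of these proteins. The small-subunit proteins (Rps) surround the decoding site, the large-subunit proteins (Rpl) surround the site where peptide bonds form, and the stalk proteins Rplp0, Rplp1 and Rplp2 recruit the elongation factors. Their messages are short and abundant, and begin with a pyrimidine tract (a TOP sequence) through which mTOR signalling sets their translation. They are also a common source of processed pseudogenes, intronless copies made by reverse transcription, so that many of them have near-identical relatives elsewhere in the mouse genome.

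The table gives FPKM, fragments counted per length of the gene and per fragments sequenced, for each library. Read totals are not given, and the depth behind a value is unknown in absolute terms. From the spacing of the lowest values, every library was 1.31 to 1.42 times as deep as WT 55, apart from WT 55 itself. Pgrmc2, the targeted gene, had 3.23, 2.99, 3.67 and 3.07 FPKM in the PATKO libraries, against 35.5, 41.5, 40.4 and 36.8 FPKM in the WT libraries, and the groups were far apart. The sum of FPKM over all rows was 310782 ± 3791 in PATKO and 289518 ± 1608 in WT (SD, n = 4 each), without overlap. With that, the median log2 change over the 12235 genes tested was 0.17 as deposited, and 0.00 after the libraries were rescaled by the median of ratios, and both scales are used below. The brown adipocyte genes Ucp1 and Cidea averaged 506 ± 105 and 2127 ± 224 FPKM in PATKO, against 748 ± 373 and 1876 ± 227 FPKM in WT (SD, n = 4 each). The list of 17 brown adipocyte markers that holds them summed to 16300 to 18340 FPKM in PATKO and 15780 to 17420 FPKM in WT, which overlapped. As deposited, 2 others of the 17 were higher and 0 lower at a limma adjusted p under 0.05 (unadjusted, 4 higher and 1 lower). After rescaling 0 passed (unadjusted, 0 higher and 2 lower). Skeletal muscle markers were present in all libraries and higher in PATKO: their 27 genes summed to 2596, 1750, 2547 and 6750 FPKM in PATKO 53, 57, 70 and 71, against 839, 631, 684 and 1508 FPKM in WT 55, 62, 64 and 65.

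The ribosomal protein messages together had a higher summed FPKM in PATKO as deposited, where the sum over all rows was higher too. The 84 genes summed to 4057, 4559, 4475 and 4415 FPKM in PATKO 53, 57, 70 and 71, against 3864, 3657, 3678 and 3951 FPKM in WT 55, 62, 64 and 65. Every PATKO sum lay above every WT sum as deposited, and rescaled sums are not given here. As a share of all FPKM they made up 1.41 ± 0.0664% in PATKO and 1.31 ± 0.0553% in WT (SD, n = 4 each), and on this measure the groups overlapped, because the lowest PATKO library had 1.32% and the highest WT library 1.37%. In bulk tissue, fewer cells of a type and less RNA per cell cannot be told apart.

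The mean level of the genes ran from 0 to 387 FPKM, and it went with how unique the coding sequence is. Of the 82 members with a coding sequence in GENCODE M21 (Rps4l and Rpl32l have none there), 79 shared at least 1 stretch of 50 bases with another gene, and 25 shared every such stretch. The median shared fraction was 88.5% among the members. Among 11350 other tested genes it was 0%, with 20.2% sharing any stretch and 1.08% sharing all of them. These others all averaged at least 0.5 FPKM, whereas 11 of the 25 fully shared members averaged less, so the sets are not alike. The 16 members that shared under 50% had a median level of 99.8 FPKM, and 14 of them reached 5 FPKM. The 41 members sharing from 50% to just under 100% had a median of 22.1 FPKM, and 31 reached 5 FPKM. The 25 members whose every stretch occurs elsewhere had a median of 0.602 FPKM, and 3 reached 5 FPKM. Across the 82 genes Spearman's rho between shared fraction and level was -0.66, a description over genes that share libraries and annotation. There were exceptions on both sides: Rpl10l shares 12.4% and is listed at 0, Rpl39l shares none and averaged 1.57 FPKM, and Rps28 shares all and averaged 25.99 FPKM over the 8 libraries. Whether reads were withheld from, or divided among, such copies was not tested, and the counting method is not given in the sources used here.

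**Figure D1:**
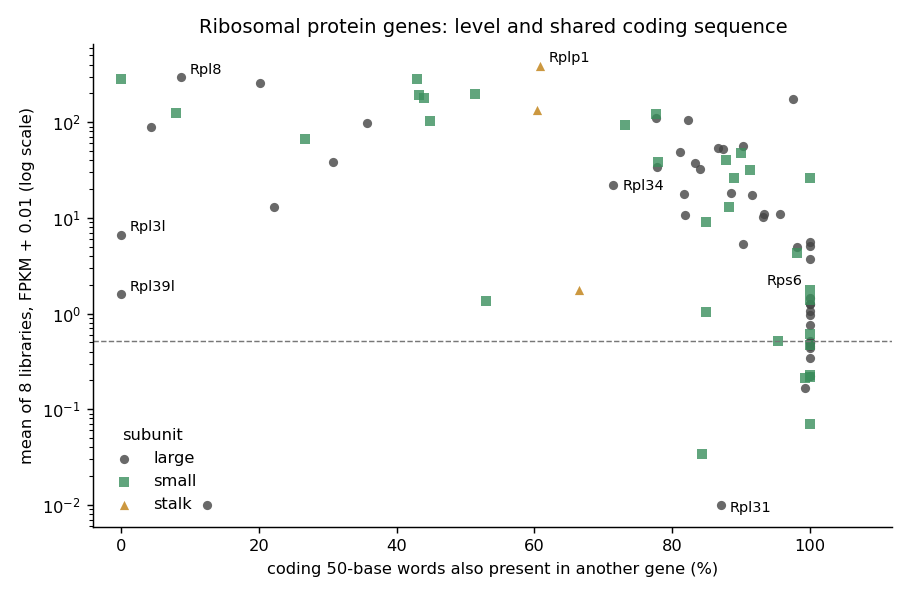
Mean FPKM of each ribosomal protein gene over the 8 libraries (log axis, 0.01 added) against the percentage of its coding 50-base words found in another gene; circles are large-subunit, squares small-subunit and triangles stalk genes, and the dashed line is the 0.5 FPKM minimum for testing. Rpl8, with 8.69% shared, lies near the top, and the 25 genes at 100% shared have a median of 0.602 FPKM.

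Rps6 is an example. It encodes the small-subunit protein that S6 kinase phosphorylates, and it lies at chr4:86854660-86857412 on the minus strand of GRCm38. It had 1.67, 1.91, 1.61 and 1.62 FPKM in PATKO 53, 57, 70 and 71, against 1.58, 2.0, 1.72 and 1.75 FPKM in WT 55, 62, 64 and 65. The libraries hardly differed, and the level is far below that of Rps15, also of the small subunit, at 302 ± 22.1 FPKM in PATKO and 262 ± 13.1 FPKM in WT (SD, n = 4 each), although each ribosome carries both proteins. The processed pseudogene Rps6-ps4 (chr2:75191073-75191822, minus strand) matches the Rps6 coding sequence over all 750 bases. Bases 61 to 150 of the coding sequence, read on the coding strand, are shown for both from GENCODE M21 because they cannot be told apart.

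Rps6: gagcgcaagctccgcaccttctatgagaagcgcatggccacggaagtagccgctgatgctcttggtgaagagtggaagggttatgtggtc
Rps6-ps4: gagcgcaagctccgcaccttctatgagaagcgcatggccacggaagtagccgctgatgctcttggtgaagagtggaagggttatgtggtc

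In all, 18 members averaged under 0.5 FPKM and were not tested. Rpl31, of the exit-tunnel rim, and Rpl10l, a retrogene that stands in for X-linked Rpl10 in male germ cells, are listed at 0 in every library. Rpl32l is listed at 0 except for 0.237 FPKM in PATKO 57, and Rps15a except for 0.095 FPKM in PATKO 71 and in WT 62. Rpl10a, Rpl21, Rpl23a, Rpl24, Rpl27, Rpl28, Rpl36a, Rpl38, Rps7, Rps13, Rps16, Rps23, Rps27a and Rps29 make up the rest. The remaining 66 were tested with limma on log2(FPKM + 0.5), in which a change understates the difference of low genes, with Benjamini-Hochberg adjustment over all 12235 genes and a threshold of 0.05.

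Of those 66 genes, 8 rose in PATKO and 0 fell as deposited, which is 12.1%, against 13.2% of all tested genes that rose and 0.27% that fell. The members' share is close to that of the background. Their median log2 change was 0.17, also that of all genes (0.17), and 58 of 66 lay above 0, as did 10275 of all 12235 genes. At an unadjusted p under 0.05, 26 were higher and 2 lower (Rpl36 and Rpl9), where 4233 and 170 of all 12235 genes were. After median-of-ratios scaling, 0 of 66 passed (0.123% of all genes did, in either direction). The median was -0.017 against -0.0037 for all genes, and 30 lay above and 36 below 0. Unadjusted, 4 were higher (Rps21, Rps28, Rpl3l and Rpl34) and 2 lower (Rpl36 and Rpl9), where 1115 and 1009 of all 12235 genes were. By non-overlap of the 4 PATKO with the 4 WT libraries, 15 members were wholly higher as deposited, where 24.0% of all genes were, and 0 wholly lower, where 0.597% were. After scaling 1 was wholly higher (Rps21; background 5.64%) and 1 wholly lower (Rpl9; background 4.43%). The authors' deposited table gives adjusted p-values for the members that are all above the threshold, such as 0.55 for Rps21 and 1 for Rps28 and Rpl3l.

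The count of 8 rests on every library. Without PATKO 53 it was 0, without PATKO 57, PATKO 70 or PATKO 71 it was 2, without WT 55 it was 5, without WT 62 it was 1, without WT 64 it was 0 and without WT 65 it was 2. The number of all genes called moved with it, between 24 and 1468 over these 8 fits, against 1646 with all libraries.

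**Figure D2:**
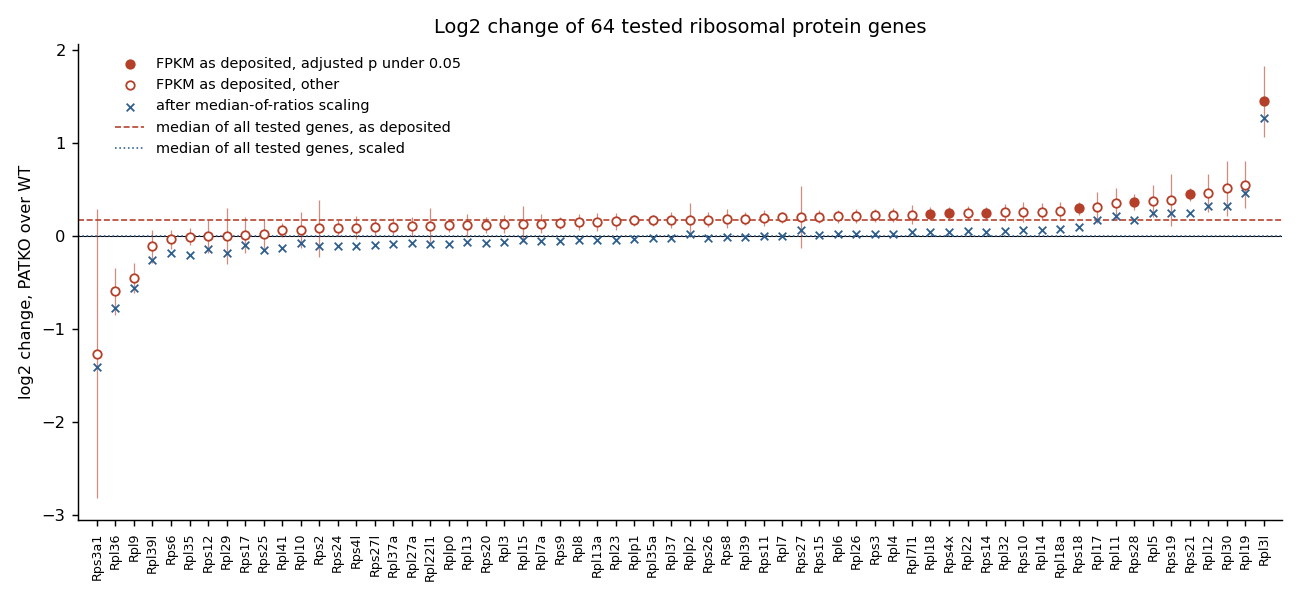
Log2 change (PATKO over WT) of tested ribosomal protein genes, ordered by the change as deposited (circles, with SE; filled where limma's adjusted p was under 0.05) and after median-of-ratios scaling (crosses). The circles gather around the dashed median of all genes (0.17) and the crosses around the dotted one (0.00); Rpl34, at 3.77, is left out to keep the scale.

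Most of the genes that rose encode small-subunit proteins: 6 of the 25 tested small-subunit genes, 2 of 38 large-subunit genes and 0 of 3 stalk genes passed as deposited, and none of them after scaling. The difference between subunits was not tested, and the medians were alike, at 0.18 for the small subunit, 0.18 for the large subunit and 0.17 for the stalk.

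Rps21 had the smallest adjusted p of the members. It encodes a small-subunit protein, at chr2:180257379-180258444 (plus strand, RefSeq, GRCm38.p6), needed for maturation of the 18S rRNA in yeast and human cells. It had 116, 116, 123 and 114 FPKM in PATKO 53, 57, 70 and 71, against 87.0, 76.9, 87.6 and 93.65 FPKM in WT 55, 62, 64 and 65. All PATKO libraries lay above all WT libraries, and did so on the rescaled values too. The log2 change was 0.45 ± 0.07 (SE; limma adjusted p = 0.0181) as deposited and 0.25 ± 0.06 (adjusted p = 0.139) after scaling. An exact permutation test gave p = 0.0286 on both scales, two-sided and unadjusted, the smallest that 4 against 4 libraries allow. The call was lost without PATKO 53 (adjusted p = 0.0531) and without WT 64 (adjusted p = 0.0553). Rps21 shares 44.8% of its coding 50-base stretches with other genes, less than most members.

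Rps28, a small-subunit protein at the messenger exit channel, had 25.8, 30.4, 31.5 and 29.5 FPKM in PATKO 53, 57, 70 and 71, against 24.2, 19.96, 22.9 and 23.7 FPKM in WT 55, 62, 64 and 65. The lowest PATKO library was only just above the highest WT library. Its log2 change was 0.36 ± 0.09 (limma adjusted p = 0.0337), and 0.17 ± 0.07 (adjusted p = 0.284) after scaling. All of its coding stretches occur in other genes, so its level is uncertain.

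Among the other small-subunit genes that rose were Rps18, at the head of the subunit, Rps4x, the X-linked copy of S4, and Rps14, whose reduced dosage underlies the anaemia of the human 5q- syndrome. Rps18 averaged 44.2 ± 3.78 FPKM in PATKO and 35.8 ± 1.24 FPKM in WT (SD, n = 4 each; log2 change 0.30, limma adjusted p = 0.0353). Rps4x averaged 51.8 ± 3.26 FPKM in PATKO and 43.7 ± 1.98 FPKM in WT (0.24, adjusted p = 0.044). Rps14 averaged 213 ± 16.9 FPKM in PATKO and 179 ± 7.32 FPKM in WT (0.24, adjusted p = 0.0499). After scaling their log2 changes were 0.10, 0.045 and 0.046, with adjusted p-values of 0.495, 0.78 and 0.821. In the large subunit Rpl18 rose, with 61.6, 67.7, 56.5 and 61.5 FPKM in PATKO 53, 57, 70 and 71, against 53.5, 52.7, 51.0 and 51.65 FPKM in WT 55, 62, 64 and 65. Every PATKO value was above every WT value by this scale only: the log2 change of 0.24 (adjusted p = 0.043) was 0.043 (adjusted p = 0.843) after scaling. Much of the coding sequence of these genes also occurs in other genes. The shared part was 87.8% for Rps18, 90.04% for Rps4x, 51.35% for Rps14 and 90.35% for Rpl18, so their levels are uncertain too.

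**Figure D3:**
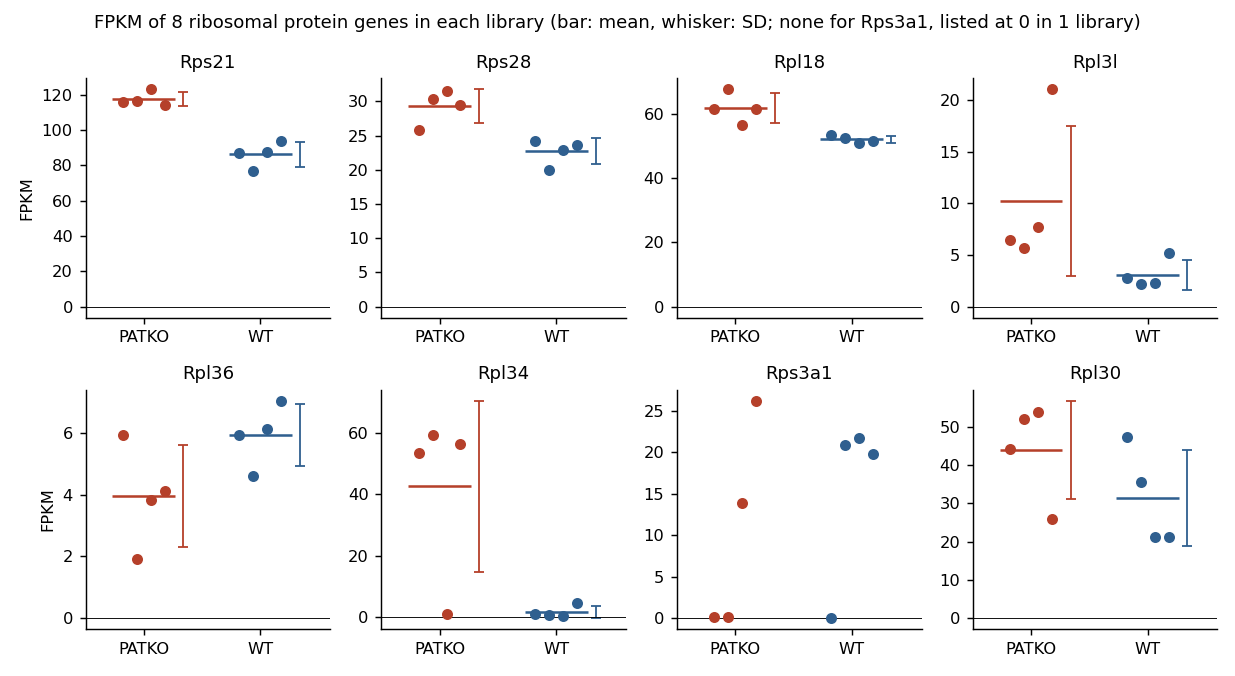
FPKM of 8 ribosomal protein genes in each library, PATKO left and WT right, with the mean (bar) and SD (whisker) of 4 libraries, except for Rps3a1, which is listed at 0 in WT 55. Rps21 separates the groups, while Rpl34, Rps3a1 and Rpl30 each hold libraries of one group at very different levels.

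Rpl3l was the member with the largest change among those that rose. It is the paralog of Rpl3 that replaces it in skeletal muscle and heart, and Rpl3 itself sits at the peptidyl transferase centre. Rpl3l had 6.47, 5.68, 7.70 and 21.02 FPKM in PATKO 53, 57, 70 and 71, against 2.75, 2.18, 2.25 and 5.23 FPKM in WT 55, 62, 64 and 65. All PATKO libraries were above all WT libraries, with PATKO 71 highest of its group and WT 65 highest of its own. Its log2 change was 1.45 ± 0.38 (limma adjusted p = 0.0403), and 1.27 ± 0.39 (adjusted p = 0.167) after scaling, where the groups overlapped. Rpl3 had 11.4, 12.55, 11.95 and 10.2 FPKM in PATKO 53, 57, 70 and 71, against 11.8, 9.94, 9.195 and 11.2 FPKM in WT 55, 62, 64 and 65, which overlapped (log2 change 0.13, adjusted p = 0.356).

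The muscle markers moved with Rpl3l. Of 27 such genes 24 rose and 0 fell, with a median log2 change of 1.76, and their summed level was highest in PATKO 71 and WT 65 and lowest in PATKO 57 and WT 62, as was Rpl3l. With the mean muscle marker level as a covariate and median-of-ratios scaling, the change of Rpl3l was -0.26 (limma adjusted p = 0.722). The summed muscle level did not overlap between PATKO and WT, so this fit cannot tell muscle level and genotype apart. The mast cell markers (4 of 6 rose) and Schwann cell markers (3 of 6) were also higher in PATKO, and both summed levels did not overlap with WT. After median-of-ratios scaling 0 of 27 muscle, 1 of 6 mast cell and 0 of 6 Schwann cell markers passed (27, 4 and 3 higher unadjusted). The parts that these cell types had in the changes of Rpl3l and the other members were not tested.

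Rpl3 (chr15:80077791-80091868, minus strand) and Rpl3l (chr17:24727820-24736143, plus strand) are identical at 74.05% of 1210 aligned coding bases. Coding bases 61 to 150 are shown, with the 22 bases that differ in capitals, to show how far the paralogs have diverged: Rpl3l shares no 50-base stretch with any other gene.

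Rpl3: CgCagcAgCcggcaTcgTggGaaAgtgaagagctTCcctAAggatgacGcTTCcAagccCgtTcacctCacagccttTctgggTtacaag
Rpl3l: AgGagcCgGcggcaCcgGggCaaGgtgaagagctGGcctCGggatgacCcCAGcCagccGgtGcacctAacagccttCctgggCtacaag

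The other paralogs did not pass. Rps27l, the paralog of Rps27 that p53 induces, was among the more abundant members, with 66.1, 75.4, 62.35 and 69.3 FPKM in PATKO 53, 57, 70 and 71, against 61.0, 62.2, 61.1 and 71.6 FPKM in WT 55, 62, 64 and 65. Its groups overlapped (log2 change 0.09, adjusted p = 0.412). It stood far above Rps27 itself, which had 0.580 to 2.80 FPKM in PATKO and 0.589 to 1.92 FPKM in WT, and which shares all its coding stretches with other genes. Rpl22l1 had 7.40 to 13.6 FPKM in PATKO and 7.67 to 12.2 FPKM in WT, below its partner Rpl22 at 38.3 to 45.3 FPKM in PATKO and 32.3 to 37.9 FPKM in WT. Rpl22 did not overlap between groups as deposited but missed the threshold (0.24, adjusted p = 0.0562). Rpl7l1, which acts in large-subunit assembly, had 12.4 to 16.15 FPKM in PATKO and 11.04 to 13.4 FPKM in WT. Rps4l had 14.5 to 17.3 FPKM in PATKO and 12.5 to 17.9 FPKM in WT. Rpl39l, a paralog best known from male germ cells, had 1.04 to 1.84 FPKM in PATKO and 1.18 to 1.98 FPKM in WT. Of the 6 tested paralogs Rpl3l alone passed, as deposited only.

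Rpl34, of the large subunit, had PATKO libraries at very different levels. It had 53.6, 59.4, 0.788 and 56.4 FPKM in PATKO 53, 57, 70 and 71, against 0.899, 0.651, 0.336 and 4.64 FPKM in WT 55, 62, 64 and 65. PATKO 70 was at the level of the WT libraries, and the other PATKO libraries were above all of them. The log2 change was 3.77 ± 1.16 (limma adjusted p = 0.0565), and 3.63 (adjusted p = 0.185) after scaling. Without PATKO 70 it was 5.13 (adjusted p = 0.0133), and 5.003 (adjusted p = 0.0264) after scaling, and Rpl34 was the only member called on rescaled values in the fits run. The row of its processed pseudogene Rpl34-ps1 had 44.85, 49.7, 0.659 and 47.2 FPKM in PATKO 53, 57, 70 and 71, against 0.753, 0.545, 0.281 and 3.885 FPKM in WT 55, 62, 64 and 65. The ratio of Rpl34 to Rpl34-ps1 was 1.19 to 1.20 in all 8 libraries.

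Rpl34 lies at chr3:130726831-130730398 (minus strand) and Rpl34-ps1 at chr6:71124610-71124963 (plus strand), and they are identical at 99.44% of 354 coding bases. Coding bases 61 to 150 are given with the single difference in capitals, because the rows of this pair moved together.

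Rpl34: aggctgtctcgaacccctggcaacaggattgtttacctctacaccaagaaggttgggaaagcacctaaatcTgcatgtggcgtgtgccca
Rpl34-ps1: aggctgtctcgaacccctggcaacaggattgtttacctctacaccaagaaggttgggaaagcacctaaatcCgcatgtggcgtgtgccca

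Rpl30, a large-subunit protein at the subunit interface, had 44.3, 52.0, 54.0 and 25.9 FPKM in PATKO 53, 57, 70 and 71, against 47.25, 35.6, 21.2 and 21.3 FPKM in WT 55, 62, 64 and 65. Both groups held high and low libraries and they overlapped (log2 change 0.51 ± 0.30, limma adjusted p = 0.23). The row of the processed pseudogene Gm12191 followed it, at a ratio of 0.924 to 0.934 for Rpl30 over Gm12191. Rpl26, which binds p53 messages as well as the ribosome, had 49.8, 58.3, 54.6 and 62.3 FPKM in PATKO 53, 57, 70 and 71, against 45.6, 46.9, 49.4 and 51.25 FPKM in WT 55, 62, 64 and 65, and its ratio to the row Gm15772 was 0.961 in every library. These 3 pairs were found by searching the table for rows in fixed proportion to a member (SD of the log2 ratio under 0.02).

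Rps3a1, a small-subunit protein beside the messenger exit, also had libraries of the same group at very different levels. Because it is listed at 0 in WT 55, it was left out of the search for rows in fixed proportion. That search took only rows above 0 in every library, so a partner row of Rps3a1 was not looked for. It had 0.150, 0.0750, 13.9 and 26.2 FPKM in PATKO 53, 57, 70 and 71, against 0, 20.9, 21.7 and 19.7 FPKM in WT 55, 62, 64 and 65. In both groups some libraries were at or near 0 and others near 20 FPKM, and no difference between the groups could be read from them (limma adjusted p = 0.567). Rps2, of the messenger entry channel, had 35.1, 41.2, 40.3 and 35.3 FPKM in PATKO 53, 57, 70 and 71, against 16.4, 49.3, 53.9 and 37.4 FPKM in WT 55, 62, 64 and 65. WT 55 was the lowest library there too. Among the 49 members of at least 5 FPKM, 6 had a within-group SD above 0.5 on the log2 scale in either group: Rpl29, Rpl30, Rpl34, Rpl3l, Rps2 and Rps3a1.

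Apart from Rps3a1, the lowest changes among the tested members were those of Rpl36 and Rpl9, both of the large subunit. Rpl36 had 5.95, 1.91, 3.83 and 4.13 FPKM in PATKO 53, 57, 70 and 71, against 5.92, 4.61, 6.12 and 7.05 FPKM in WT 55, 62, 64 and 65. PATKO 57 was lowest, and PATKO 53 lay among the WT libraries. The log2 change was -0.60 ± 0.26 (limma adjusted p = 0.126) and -0.78 (adjusted p = 0.185) after scaling. Rpl9 had 0.491, 0.390, 0.537 and 0.833 FPKM in PATKO 53, 57, 70 and 71, against 1.15, 0.739, 0.858 and 1.04 FPKM in WT 55, 62, 64 and 65. Only PATKO 71 reached into the WT range as deposited, and after scaling none did (log2 change -0.45 and adjusted p = 0.0853 as deposited, -0.56 and 0.149 after scaling). Its coding stretches are all shared.

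Rpl5 and Rpl11, which with the 5S rRNA bind and hold Mdm2 when ribosome assembly fails, were low in the table. Rpl5 had 0.798 to 1.34 FPKM in PATKO and 0.509 to 1.02 FPKM in WT (log2 change 0.38, adjusted p = 0.146). Rpl11 had 0.982 to 1.80 FPKM in PATKO and 0.779 to 1.35 FPKM in WT (0.35, adjusted p = 0.169). All coding stretches of both genes occur elsewhere. Rps19, the gene most often mutated in Diamond-Blackfan anaemia, had 0.984 to 2.31 FPKM in PATKO and 0.466 to 1.604 FPKM in WT (0.39, adjusted p = 0.334). Rps26, also a Diamond-Blackfan gene, was abundant, at 94.1 to 111 FPKM in PATKO and 79.96 to 96.25 FPKM in WT (0.17, adjusted p = 0.154).

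At the other end of the range, the stalk protein Rplp1 was the highest member, with 402, 408, 397 and 431 FPKM in PATKO 53, 57, 70 and 71, against 352, 356, 384 and 368 FPKM in WT 55, 62, 64 and 65. The groups did not overlap as deposited, but the change of 0.17 missed the threshold (limma adjusted p = 0.0839) and was -0.031 after scaling. Rplp0, the scaffold of the stalk and a common reference gene in quantitative PCR, had 132 to 145 FPKM in PATKO and 119 to 138 FPKM in WT (0.11, adjusted p = 0.244). Rplp2 had 1.48 to 2.28 FPKM in PATKO and 1.04 to 2.29 FPKM in WT. The most abundant large-subunit genes were Rpl8, at 310.2 ± 30.2 FPKM in PATKO and 280 ± 24.9 FPKM in WT, Rpl4, at 275 ± 21.1 FPKM in PATKO and 236 ± 16.0 FPKM in WT, and Rpl13a, at 183 ± 21.6 FPKM in PATKO and 164 ± 11.04 FPKM in WT (SD, n = 4 each). Rps15 was at a like level in the small subunit. None of Rpl8, Rpl4, Rpl13a and Rps15 passed (limma adjusted p from 0.076 to 0.261).

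Between libraries of the same group the abundant members moved together. After median-of-ratios scaling, the 49 members of at least 5 FPKM sat at a median of 0.10 (log2) above their own means in PATKO 57 and 0.062 above in PATKO 71, and 0.073 below in PATKO 53 and 0.065 below in PATKO 70. In the WT libraries the medians ran from -0.035 to 0.020. PATKO 57 exceeded PATKO 53 for 41 of the 49 genes, and was the highest of the 8 libraries for 22 of them, while PATKO 53 was the lowest for 17. The matching counts over all genes are not given here. The PATKO libraries thus lay on both sides of WT. As deposited, the medians were 0.0043 to 0.17 in PATKO and -0.16 to -0.036 in WT.

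**Figure D4:**
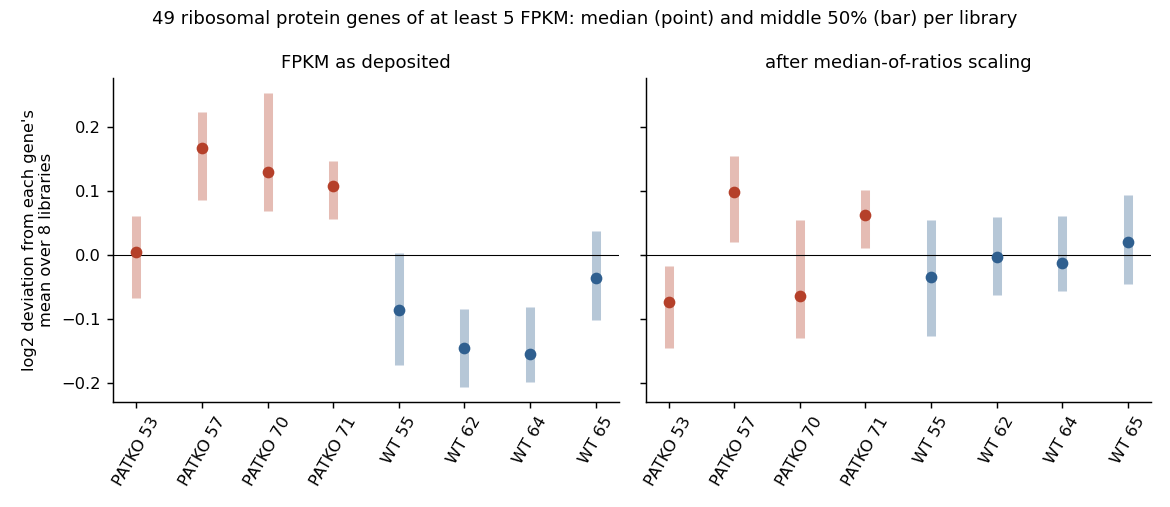
Log2 deviation of the 49 ribosomal protein genes of at least 5 FPKM from each gene's mean over the 8 libraries, as deposited (left) and after median-of-ratios scaling (right), with the median (point) and the middle 50% of genes (bar) for each PATKO and then each WT library. As deposited all PATKO medians are above all WT medians; after scaling PATKO 57 and 71 are above and PATKO 53 and 70 below the WT libraries.

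Promoters of the members were searched for letters known from ribosomal protein genes. RefSeq windows of GRCm38.p6, from 250 bases before to 50 after the start, were matched for members by symbol, and 63 gene symbols had one. The pyrimidine letters CTTTCC occurred on either strand in 32 of 63 (50.8%), against 29.3% of 27025 genes. A match could lie anywhere in the window, so it need not be the TOP sequence that begins the message. CCGGAAG, the core letters bound by ETS-family factors, occurred on either strand in 25 of 63 (39.7%), against 9.93% of all genes, and no match of one overlapped a match of the other in their 75 windows. Among the genes that rose, both were present for Rps21. From 60 bases before to 20 after the start, with the matched letters in capitals, the windows of 3 genes that rose are shown: Rps21 at chr2:180257319-180257398 (plus strand), Rpl18 at chr7:45718011-45718090 (plus strand) and Rps4x at chrX:102189372-102189451 (minus strand). Each is read on the strand of its gene, and in Rps4x CTTTCC lies on the opposite strand and so reads GGAAAG.

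Rps21: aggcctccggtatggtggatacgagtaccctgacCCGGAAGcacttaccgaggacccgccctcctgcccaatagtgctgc
Rpl18: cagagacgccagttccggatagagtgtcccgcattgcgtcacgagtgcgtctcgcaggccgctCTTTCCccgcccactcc
Rps4x: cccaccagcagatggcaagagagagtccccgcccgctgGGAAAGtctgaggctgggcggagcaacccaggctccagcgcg

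Lists of the factors that work with the ribosome were read beside the 13.2% and 0.27% of all genes. For unadjusted counts, 4233 of all 12235 genes were higher and 170 lower as deposited, and 1115 and 1009 after scaling. Of 11 elongation factor genes 3 rose and 0 fell. Eef1a2, the muscle and neuron form of the factor that delivers aminoacyl-tRNA, had 11.7, 8.73, 11.6 and 33.5 FPKM in PATKO 53, 57, 70 and 71, against 4.35, 2.14, 2.71 and 6.64 FPKM in WT 55, 62, 64 and 65, again highest in PATKO 71 and WT 65 (log2 change 1.82, limma adjusted p = 0.0309). Eef2k, the kinase that inhibits elongation factor 2, averaged 3.59 ± 0.526 FPKM in PATKO and 2.14 ± 0.171 FPKM in WT (0.63, adjusted p = 0.022). Eef1g averaged 20.7 ± 1.38 FPKM in PATKO and 16.3 ± 1.48 FPKM in WT (0.34, adjusted p = 0.0356). None of the 3 passed after scaling (adjusted p from 0.119 to 0.344).

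Of 40 initiation factor genes 9 rose and 0 fell, and 1 passed on both scales. That gene was Eif4a2, an RNA helicase of the cap-binding complex, with 143, 139, 140.0 and 126 FPKM in PATKO 53, 57, 70 and 71, against 86.0, 82.7, 81.8 and 82.1 FPKM in WT 55, 62, 64 and 65. The groups were well separated, with a log2 change of 0.72 ± 0.06 (limma adjusted p = 0.00167) as deposited and 0.52 (adjusted p = 0.0286) after scaling. What raised Eif4a2 was not tested, and the Cre driver of the knockout is not given in the sources used here. Eif4g1, the scaffold of that complex, averaged 87.3 ± 6.24 FPKM in PATKO and 69.1 ± 3.33 FPKM in WT (0.33, adjusted p = 0.0263, and 0.237 after scaling). Of 23 other messages with a TOP sequence 3 rose and 0 fell, namely Eef1g, Eif4b and Eif3h. All 3 are already counted among the elongation and initiation factors above. The median log2 change of the 23 was 0.19. After scaling 0 of them passed by limma (0 higher and 4 lower unadjusted).

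Of 83 ribosome biogenesis genes 6 rose and 0 fell, with a median log2 change of 0.14, below the 0.17 of all genes. Pes1, of the complex that processes large-subunit rRNA, averaged 11.2 ± 0.328 FPKM in PATKO and 8.80 ± 0.828 FPKM in WT (0.33, limma adjusted p = 0.0341). Ddx47 and Riok2 had changes of 0.30 and 0.31 (adjusted p = 0.0374 and 0.0402). After scaling none passed. At an unadjusted p under 0.05 on that scale, 0 were higher and 9 lower, where 1115 and 1009 of all 12235 genes were. Of 15 genes for RNA polymerase I and its factors, which make the rRNA precursor, 0 passed on either scale by limma (unadjusted, 6 higher and 0 lower as deposited, 0 and 1 after scaling). Of 27 genes that control ribosomal protein synthesis 2 rose: Tsc1, a brake on mTOR, averaged 5.21 ± 0.913 FPKM in PATKO and 3.37 ± 0.502 FPKM in WT (0.56, adjusted p = 0.0351), and Eif4ebp2, a cap-binding repressor, averaged 36.2 ± 4.32 FPKM in PATKO and 27.5 ± 2.60 FPKM in WT (0.39, adjusted p = 0.0374). Of 14 genes for ribosomal protein quality control, import and the p53 response 3 rose, Mdm2, Huwe1 and Aarsd1, by 0.28, 0.25 and 0.23. None of these 5 passed after scaling, where the lowest adjusted p was 0.202. Of 5 tested ribosomal proteins whose names fall outside the rule 0 passed by limma (1 higher and 0 lower unadjusted): Rack1, a signalling scaffold on the small subunit, averaged 213 ± 8.91 FPKM in PATKO and 184 ± 16.1 FPKM in WT (0.22, adjusted p = 0.073).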

How the data were processed

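Poly(A) RNA from brown adipose tissue, in 8 libraries, was prepared from 0.5 µg of total RNA with a TruSeq Stranded mRNA kit, per the labels' protocols, and mm10 is the build per the submitters' processing notes. Aligner, counting method and annotation: not given in the sources used here. The values are FPKM per gene and library, made by the authors, with depth unknown beyond the relative estimate. The adjusted p-value of each gene in the deposited table is the authors' own, from a test not named there. From the FPKM, genes of a mean of at least 0.5 were tested with limma 3.58.1 (R 4.3.3, trend) on log2(FPKM + 0.5), PATKO against WT, 4 libraries each, with Benjamini-Hochberg adjustment over 12235 genes. Median-of-ratios factors gave the rescaled values. The script was checked on simulated data. Shared coding sequence was counted as 50-base words of the longest coding transcript found in transcripts of other genes (GENCODE M21, GRCm38), and promoters came from RefSeq.

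The members and the lists were chosen with earlier results of these data known. The set of named members held the paralogs, the stalk, 20 listed members and the 10 lowest adjusted p-values (5 after scaling). It also held the 3 largest and 3 smallest changes of members of at least 5 FPKM. The 3 highest and lowest levels of each subunit were in it too. All untested members were named as well, with up to 3 genes of each other list. Some genes of the set, such as Rpl7, Rps3 and Rpl35, are not described above. Rpl14, Rpl26, Rps2, Ucp1, Cidea and the pseudogene rows were named after their values were seen. A gene that is counted but withheld by name is not reported here. Alternatives were other pseudocounts, filters, scalings, limma without trend, a muscle covariate, and each library left out.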

Additional observations from a re-analysis of the deposited data

Results flagged for a closer look

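Of 98 groups of 4 libraries looked at over the 49 named ribosomal protein genes, 8 held a library that stood far from the other 3 by Dixon's criterion, which chance does for about 1 group in 20. Rpl34 had 0.788 FPKM in PATKO 70, when the other PATKO libraries had 53.6 to 59.4 FPKM. Rps3a1 is listed at 0 in WT 55, when the other WT libraries had 19.7 to 21.7 FPKM. Rps27l had 71.621 FPKM in WT 65, above 61.0 to 62.2 FPKM in the other WT libraries, and Rpl39 had 33.881 FPKM in WT 65, above 29.2 to 29.4 FPKM in the others. The rest were genes listed at 0 in other libraries of the group: Rpl32l had 0.237 FPKM in PATKO 57, Rps15a had 0.095 FPKM in PATKO 71 and 0.095 FPKM in WT 62, and Rps23 had 0.117 FPKM in PATKO 70. There any value above 0 would have been flagged, so the rate of 1 in 20 does not apply to them. The 98 groups also include some at 0 throughout, such as those of Rpl31 and Rpl10l, to which it does not apply either.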

How the results depend on the processing

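The scaling decided the calls. Against 8 ribosomal protein genes, 1646 genes in all and a median of 0.17 as deposited, median-of-ratios scaling gave 0, 15 and -0.017, TPM scaling 0, 28 and 0.078, quantile normalization 0, 18 and 0.028, and the muscle covariate with median-of-ratios scaling 0, 2 and -0.049. The cause of these moves was not tested. No filter gave 3 and 713, a minimum mean of 5 FPKM gave 13 members, and limma without trend gave 2 and 992. Pseudocounts of 1 and 0.1 gave 7 and 8. Leaving out 1 library gave 0 to 5 members and 24 to 1468 genes. With median-of-ratios scaling as well, leaving out PATKO 53, 57, 70 and 71 gave 0, 0, 1 and 0 members, 3, 7, 7 and 3 genes and medians of 0.018, -0.034, 0.019 and -0.028, and leaving out WT 55, 62, 64 and 65 gave 0 members each time, 62, 5, 5 and 5 genes and medians of -0.016, -0.020, 0.0026 and -0.0098. Among the 8 genes called as deposited, 4 values changed sign: Rpl3l (-0.26) and Rps4x (-0.013) with the muscle covariate, and Rpl18 (-0.0094) and Rps14 (-0.0073) without PATKO 57 on rescaled values. Of 1014 values of 41 named members, 847 stayed on their side of the threshold (674 with the same sign, and 173 uncalled in both and of the opposite sign), 156 lost the call and 7 gained it. No paired analysis was possible because the library numbers of PATKO and WT are not shared. The depth behind the low values is unknown, and how reads of near-identical copies were counted was not tested.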

Other observations

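Some rows whose names mark them as pseudogenes of ribosomal protein genes were higher than the genes. Rps19-ps3 had 92.0, 99.0, 89.3 and 98.7 FPKM in PATKO 53, 57, 70 and 71, against 89.5, 79.8, 83.85 and 84.5 FPKM in WT 55, 62, 64 and 65, while Rps19 averaged 1.59 FPKM in PATKO and 1.13 FPKM in WT. Rplp2-ps1 had 198.5, 240.2, 255.6 and 219.5 FPKM in PATKO 53, 57, 70 and 71, against 208, 154, 198 and 189 FPKM in WT 55, 62, 64 and 65, while Rplp2 averaged 1.85 FPKM in PATKO and 1.61 FPKM in WT. Rps15a-ps6 averaged 8.42 ± 0.682 FPKM in PATKO and 7.58 ± 0.471 FPKM in WT (SD, n = 4 each), while Rps15a is listed at 0 in 6 of 8 libraries. Rpl14-ps1 was the 1 such row looked at that passed the test, with 31.15 ± 2.12 FPKM in PATKO and 24.2 ± 3.80 FPKM in WT (log2 change 0.37, limma adjusted p = 0.0458, and 0.339 after median-of-ratios scaling), beside Rpl14 itself at 37.4 ± 3.75 FPKM in PATKO and 31.2 ± 2.90 FPKM in WT. These rows were chosen after their values were seen, and how reads were divided between a gene and its copy was not tested.

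Over all 12235 genes, 4233 were higher and 170 lower unadjusted as deposited, and 1115 and 1009 after scaling. Among other cell types, lymphocyte markers summed to 3.50 to 5.15 FPKM in PATKO and 4.24 to 17.3 FPKM in WT, and 0 of 7 tested passed by limma (0 higher and 3 lower unadjusted). Macrophage markers summed to 133 to 265 FPKM in PATKO and 127 to 242 FPKM in WT, with 0 of 14 passing (4 higher and 0 lower unadjusted). Fibroblast markers summed to 364 to 639 FPKM in PATKO and 321 to 384.5 FPKM in WT, and 1 of 9 passed (5 higher and 0 lower unadjusted). On rescaled values 0 passed (1 higher and 0 lower without adjustment). Erythroid markers summed to 259.9 to 376 FPKM in PATKO and 349 to 554.5 FPKM in WT, with 0 of 5 tested passing by limma on either scale (0 higher and 2 lower unadjusted as deposited, 0 and 5 after scaling). Endothelial markers summed to 174 to 214 FPKM in PATKO and 152 to 211 FPKM in WT, and 1 of 9 passed as deposited and 0 after scaling (1 and 0 higher unadjusted, 0 lower). Of the proliferation markers 0 of 4 tested passed (0 higher and 0 lower unadjusted), and their sums were 13.5 to 17.9 FPKM in PATKO and 16.3 to 21.7 FPKM in WT.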
